A study of Mus musculus with 6 samples.

Results

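The levels of 10 genes of bone morphogenetic protein (BMP) signaling were compared in small intestinal organoids treated with MMK-1, a synthetic peptide agonist of formyl peptide receptor 2 (FPR2). They were chosen by symbol as the ligands Bmp2 and Bmp4, the receptors Bmpr1a and Bmpr2, the target genes Id1, Id2 and Id3, and the inhibitors Smad6, Smad7 and Bambi, and all 10 were among the 21397 genes of the table. Control organoids received the vehicle, 0.1% DMSO, and MMK-1 organoids received 1 μmol/L MMK-1, both for 5 days. All organoids were grown from intestinal crypts of Fpr2f/f mice, so the controls carried the floxed alleles too, and each group had 3 libraries. The study states that organoids of 3 mice were combined in each sample. For the MMK-1 dose, the treatment label and the series' design text give other units than the protocol text, whose dose was used here and is also that of the study's methods. Crypts were grown in Matrigel without added mesenchyme, and no source used here states which BMP ligands or inhibitors the culture medium held.

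BMP ligands bind a complex of type I receptors, such as BMPR1A, and type II receptors, such as BMPR2. The complex phosphorylates SMAD1, SMAD5 and SMAD9, which enter the nucleus with SMAD4 and switch on the ID genes, whose products bind E proteins and keep them from DNA. SMAD6 and SMAD7 are targets of the pathway that feed back to block it, and BAMBI is a receptor-like protein without kinase activity. In the small intestine BMP signaling is highest toward the villus and is held low around the stem cells at the crypt base, where antagonists from the surrounding mesenchyme counter it.

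Of the 10 members, 7 had a mean of at least 1 in FPKM, the fragments of a gene scaled to its length and to the fragments in the library, and were tested with limma among 10551 genes. Both receptors rose with MMK-1, by about 2-fold in FPKM. The ligand Bmp2 and the target genes Id2 and Id3 fell, to between 0.756 and 0.900 of the control mean. Id1 and Smad7 did not pass the test. Bmp4, Smad6 and Bambi lay below the filter and are described apart. Calls were made at 0.05 after Benjamini-Hochberg adjustment, and 2 of the 7 members tested were called higher and 3 lower, beside 48.5% and 24.7% of all genes tested. Neither receptor reached a fold change of 2 on the log2(FPKM + 1) scale used for testing, so 0 of the 7 met the study's thresholds, a change of 2-fold or more with an unadjusted p up to 0.05, when applied on this scale. These thresholds were met by 3.39% of all genes tested in the higher and by 3.65% in the lower direction. All 5 members called had an unadjusted p under 0.05, and with limma-voom on fragments the log2 fold change was 0.99 for Bmpr1a and 1.01 for Bmpr2, at the border of the fold threshold. Without Control replicate 2 the members called lower went from 3 to 1, Id3, because Bmp2 and Id2 no longer passed.

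**Figure D1:**
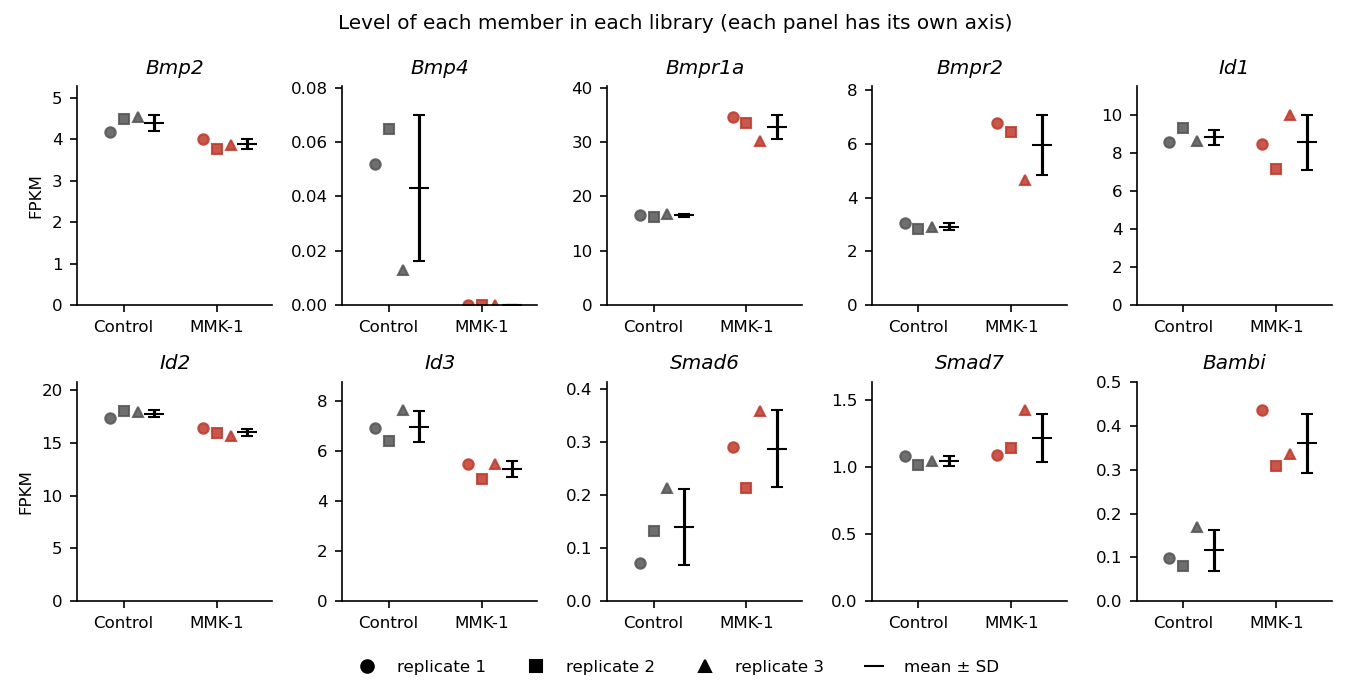
FPKM of each of the 10 members in each library, 1 panel per gene with its own vertical axis from 0. Symbols are libraries and the bar beside each group is the mean ± SD of 3 libraries. The MMK-1 libraries lie above all controls for Bmpr1a, Bmpr2, Smad7 and Bambi and below all controls for Bmp2, Bmp4, Id2 and Id3, while Id1 and Smad6 overlap.

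The libraries held 35512739 to 37537463 fragments, a depth computed from the FPKM values. MMK-1 replicate 3 stood apart: the chi-square per degree of freedom between libraries, which is near 1 under counting noise alone, was 34.4 and 29.4 against the other MMK-1 libraries, compared with 3.46 between those and 2.78 to 4.78 between controls. The epithelial marker Epcam lay between 377 and 415 FPKM in all 6 libraries. Of the 6 markers of intestinal epithelium, Vil1, Krt19 and Krt8 were lower with MMK-1 (ratios of 0.433, 0.580 and 0.813), Cdx2 and Cdh1 were higher (1.24 and 1.12), and their summed level was 3213 to 3251 FPKM in control and 2224 to 2389 FPKM in MMK-1 libraries. Of 15 fibroblast, smooth muscle, endothelial and leukocyte markers with a row in the table, none exceeded 0.226 FPKM (Pecam1) in any library, and the endothelial receptor Kdr was at 0 throughout. Among epithelial markers, 6 of 6 stem cell markers were called higher and 7 of 8 enterocyte markers lower in the limma test. Of all genes tested, 48.5% were called higher and 24.7% lower. The study names Lgr5, Olfm4 and Axin2 of the stem cell list as raised by MMK-1 in this RNA-seq, so their direction is no independent evidence. For the stem cell list the summed level was 66.0 to 67.7 FPKM in control and 381 to 409 FPKM in MMK-1 libraries. For the enterocyte list it was 8205 to 8329 FPKM against 4807 to 5195 FPKM. The part of these shifts in the changes described here was not tested, and in bulk RNA fewer cells of a type and less RNA per cell cannot be told apart. Across all genes tested the median change was 0.13 on the log2 scale, and median-ratio scaling between libraries moved it by -0.13, to 0.01, with 3792 genes higher and 3828 lower in place of 5118 and 2606. Changes are therefore also given relative to this median. The labels do not state that the libraries came from separate cultures, so p-values measure the spread between these samples, which may be technical.

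Bases of annotated promoter windows are shown for Bmpr1a, which rose, for Id2, which fell, and for Smad6, an inhibitor with a low level. RefSeq promoter windows on GRCm38.p6 were matched by symbol for 6 members (Bmp4, Bmpr1a, Bmpr2, Id2, Id3 and Smad6), and the 250 bases before the annotated start were searched on both strands for GGCGCC (a GC-rich SMAD site), GTCTAGAC (a palindromic SMAD site), TGANTCA (the AP-1 site), CACGTG (the E-box) and TTCAAAG (a TCF/LEF site). In GENCODE coordinates the windows of Bmpr1a, Bmpr2, Id2 and Id3 lie inside the gene, downstream of its outermost start. Those of Bmp4 and Smad6 lie before the gene. Every GGCGCC match given below is thus inside a gene. Only bases outside GENCODE exons are printed. They are given 5′ to 3′ in the direction of the gene, with matches in capitals, and lie at chr14:34502688-34502796 (Bmpr1a), chr12:25096254-25096342 (Id2) and chr9:64022060-64022309 (Smad6), all on the minus strand.
Bmpr1a: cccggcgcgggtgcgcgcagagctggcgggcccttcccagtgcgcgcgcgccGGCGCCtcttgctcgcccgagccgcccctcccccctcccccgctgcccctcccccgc
Id2: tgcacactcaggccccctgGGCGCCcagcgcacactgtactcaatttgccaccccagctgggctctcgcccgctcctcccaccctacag
Smad6: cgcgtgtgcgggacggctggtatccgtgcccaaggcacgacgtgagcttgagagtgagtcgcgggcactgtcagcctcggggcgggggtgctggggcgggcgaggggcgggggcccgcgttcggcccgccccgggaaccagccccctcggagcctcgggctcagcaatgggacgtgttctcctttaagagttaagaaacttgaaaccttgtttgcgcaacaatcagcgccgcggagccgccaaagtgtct
GGCGCC began 198 bases before the start of Bmpr1a, 231 before that of Id2 and 105 before that of Bmpr2, where it lies in an exon of another annotated transcript. Thus the sequence was in the windows of both receptors that rose and of a target gene that fell. CACGTG began 188 bases before the start of Bmp4. No other match was found in the 6 windows, and no matches overlapped. Of 32851 windows of this length, 9.59% held GGCGCC, 6.75% TGANTCA, 6.02% CACGTG, 4.46% TTCAAAG and 0.167% GTCTAGAC. The windows of the 6 members were GC-rich, with 62.8% to 78.8% G or C, and of the 9178 windows with at least 60% G or C, 26.1% held GGCGCC and 9.32% held CACGTG.

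Bmp2 (NCBI gene 12156, chromosome 2 of GRCm38, 133552159 to 133562885), the more abundant of the 2 ligand members, had 4.16, 4.49 and 4.52 FPKM in the control libraries and 3.996, 3.77 and 3.86 FPKM in the MMK-1 libraries. Every MMK-1 library lay below every control library, with the nearest pair 4.16 and 3.996. The mean was 4.39 ± 0.197 FPKM (SD, n = 3) in control and 3.87 ± 0.114 FPKM (SD, n = 3) in MMK-1 libraries, a log2 fold change of -0.14 (standard error, SE, 0.0519, limma adjusted p = 0.0320) and of -0.28 relative to the median of all genes. The call was narrow: the adjusted p in limma was 0.105 without Control replicate 2, 0.102 without Control replicate 3, 0.0958 without MMK-1 replicate 2 and 0.0565 when every gene above 0 was tested.

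Bmp4 (NCBI gene 12159, chromosome 14, 46383520 to 46390669) was represented by 4, 5 and 1 fragments in the control libraries and by 0 in each MMK-1 library. Since a count of 0 is compatible with up to 3 fragments in a library, the libraries are at about the limit of detection and no fold change is given. In FPKM the controls were at 0.0519, 0.0647 and 0.0130. The fit of every gene above 0 gave an adjusted p of 0.0470 in limma, which ranged from 0.00268 to 0.148 when 1 library was left out and stayed at or under the threshold only without Control replicate 3. In the mouse intestine Bmp4 is known as a ligand of the mesenchyme, and fibroblast and smooth muscle markers summed to at most 0.165 FPKM in these libraries.

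The other ligands differed in direction. Bmp3, an atypical ligand that antagonizes BMP signaling, was in controls the most abundant of the 5 with a row in the table. It had 9.05, 8.49 and 8.72 FPKM in control and 3.67, 3.57 and 3.23 FPKM in MMK-1 libraries. Its log2 fold change was -1.12 (SE 0.0553, limma adjusted p = 3.7e-07), a larger fall than that of any member tested. Bmp7 had 5.11, 4.99 and 4.80 FPKM in control and 6.81, 6.55 and 8.01 FPKM in MMK-1 libraries (log2 fold change 0.44, limma adjusted p = 0.00047). Thus the level of Bmp7 was slightly above that of Bmp2 in controls and higher still with MMK-1, where it also exceeded that of Bmp3. Bmp6, Bmp8a and Bmp8b stayed at or under 0.556 FPKM in every library. In the fit of every gene above 0, Bmp8a fell from 40, 46 and 50 fragments to 8, 12 and 11 (ratio of FPKM 0.236, limma adjusted p = 0.00022), and Bmp6 rose from 1, 8 and 2 fragments to 15, 13 and 14 (limma adjusted p = 0.00778). Bmp8b had 4, 3 and 13 fragments in control and 18, 16 and 19 in MMK-1 libraries (limma adjusted p = 0.0218).

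Bmpr1a (NCBI gene 12166, chromosome 14, 34410734 to 34503341), a type I receptor through which BMP signals are received in the intestinal epithelium, had the smallest adjusted p of the members. Its level was 16.5, 16.3 and 16.8 FPKM in the control libraries and 34.6, 33.5 and 30.2 FPKM in the MMK-1 libraries, from 3716 to 3807 and from 6821 to 7471 fragments. The lowest MMK-1 library was replicate 3, still far above all controls. The mean rose from 16.5 ± 0.234 FPKM (SD, n = 3) to 32.8 ± 2.29 FPKM (SD, n = 3), a ratio of 1.98, and the log2 fold change was 0.94 (SE 0.0545, limma adjusted p = 9.5e-07) and 0.81 relative to the median of all genes. It exceeded the log2 fold change of 95.8% of genes tested. The alternatives for scaling, GC content, pseudocount and left-out libraries gave 0.80 to 1.00, all past the threshold. The exact two-sided permutation p was 0.100, the smallest that 3 libraries against 3 can give, and the same value holds for every member whose groups did not overlap.

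Bmpr2 (NCBI gene 12168, chromosome 1, 59763400 to 59879014), a type II partner, rose by a like ratio with a wider spread. It had 3.05, 2.82 and 2.91 FPKM in control and 6.78, 6.44 and 4.67 FPKM in MMK-1 libraries. Here too MMK-1 replicate 3 was lowest, with 2048 fragments against 2843 and 2730 in the other MMK-1 libraries, and the groups did not overlap. The means were 2.93 ± 0.116 FPKM and 5.96 ± 1.13 FPKM (SD, n = 3 each), a ratio of 2.04, and the log2 fold change was 0.81 (SE 0.109, limma adjusted p = 0.00016). Without MMK-1 replicate 3 it was 0.95. Bmpr2 has the lowest GC content of the members, 39.6% against a median of 50.7% for genes tested, and after a correction for GC content its log2 fold change was 0.47 (limma adjusted p = 6.98e-05). The ratio of Bmpr1a to Bmpr2 in FPKM was 5.41, 5.77 and 5.76 in controls and 5.10, 5.20 and 6.47 with MMK-1, so the groups overlapped.

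Of the other receptors and coreceptors, 9 of 10 had a row in the table and 5 were tested, of which 3 were called higher and 0 lower, beside 48.5% and 24.7% of all genes tested, and their median log2 fold change was 0.38. Rgmb, a membrane-anchored coreceptor that binds BMP ligands, rose from 5.88, 6.57 and 6.22 FPKM to 21.2, 21.2 and 21.9 FPKM, a ratio of 3.45 and a log2 fold change of 1.64 (limma adjusted p = 2.5e-08). Neo1, which encodes the RGM-binding receptor neogenin, rose from 22.4 to 23.0 FPKM in controls to 28.9 to 31.3 FPKM (log2 fold change 0.38, limma adjusted p = 7.1e-05). The rise of both exceeded the spread between libraries, and under median-ratio scaling that of Neo1 was 0.24. Acvr2b passed narrowly (log2 fold change 0.17, limma adjusted p = 0.0278) and did not pass under either scaling, under the GC correction or without MMK-1 replicate 3. The type II receptor Acvr2a was at 9.15, 8.22 and 8.54 FPKM in control and at 14.0, 13.9 and 7.95 FPKM in MMK-1 libraries, so that replicate 3 lay below the controls. Its log2 fold change was 0.39 (limma adjusted p = 0.0746) and 0.63 without that library (limma adjusted p = 8.1e-06). The type I receptor Acvr1 was at a log2 fold change of 0.12 (limma adjusted p = 0.0867), and Bmpr1b had a value above 0 in 1 of 6 libraries, 0.00287 FPKM.

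**Figure D2:**
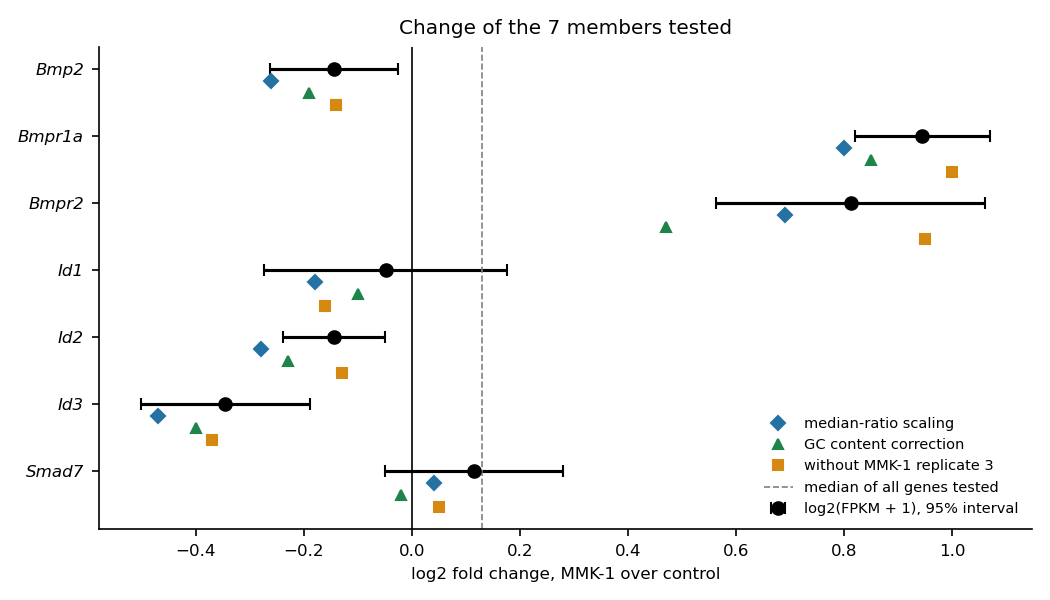
Log2 fold change of log2(FPKM + 1), MMK-1 over control, for the 7 members tested. Black points are the limma estimates with 95% intervals from 6 libraries, coloured symbols the estimates under 3 alternatives, and the dashed line the median of all genes tested, 0.13. Bmpr1a and Bmpr2 lie at 0.47 or above and Bmp2, Id2 and Id3 at -0.13 or below in each of these fits, and Smad7 crosses 0 under the GC correction.

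The list of SMAD genes whose products carry the signal held 6 genes. Smad1, Smad2, Smad3, Smad4 and Smad5 were tested, and these 5 were called higher, beside 48.5% of all genes tested, with a median log2 fold change of 0.24 against 0.13 for all genes tested. Smad5 rose most, from 4.10, 4.03 and 3.70 FPKM to 5.81, 5.95 and 5.63 FPKM (log2 fold change 0.46, limma adjusted p = 6.3e-05). Smad4, the partner shared with TGF-beta signaling, rose from 13.2, 14.0 and 14.5 FPKM to 18.4, 19.1 and 16.7 FPKM (log2 fold change 0.36, limma adjusted p = 0.00056). Both passed under both scalings as well, with Smad4 at 0.22 under median-ratio scaling. Smad1 and Smad2 were at 0.22 and 0.13 (limma adjusted p = 0.0109 and 0.0487) and did not pass under upper-quartile or median-ratio scaling, where Smad1 was at 0.14 and 0.08. Smad2 also lost the call under the GC correction (0.06, limma adjusted p = 0.30) and without MMK-1 replicate 3 (limma adjusted p = 0.0542). Smad3 was at 0.24 (limma adjusted p = 0.00272, and 0.0576 under median-ratio scaling), and Smad9, which was not tested, was at most 0.0134 FPKM in any library.

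Id1 (NCBI gene 15901, chromosome 2, 152736251 to 152737410) had 8.56, 9.28 and 8.60 FPKM in control and 8.47, 7.15 and 10.05 FPKM in MMK-1 libraries. The MMK-1 libraries spread on both sides of the controls, with replicate 2 lowest and replicate 3 highest. The log2 fold change was -0.05 with a 95% interval of -0.27 to 0.18 (limma adjusted p = 0.672), and it was 0.06 without MMK-1 replicate 2 and -0.16 without MMK-1 replicate 3. The interval does not exclude a small change in either direction.

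Id2 (NCBI gene 15902, chromosome 12, 25093799 to 25097140) was the most abundant of the ID genes, with 17.4, 17.99 and 17.9 FPKM in control and 16.4, 15.9 and 15.7 FPKM in MMK-1 libraries. The groups did not overlap, and the fall was small, from 17.7 ± 0.325 FPKM to 16.0 ± 0.371 FPKM (SD, n = 3 each). The log2 fold change was -0.14 (SE 0.0413, limma adjusted p = 0.0118) and -0.28 relative to the median of all genes. It was -0.13 without Control replicate 2 (limma adjusted p = 0.0551), the only library whose omission ended the call.

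Id3 (NCBI gene 15903, chromosome 4, 136143497 to 136145755) fell furthest of the members tested. It had 6.89, 6.40 and 7.61 FPKM in control and 5.47, 4.88 and 5.45 FPKM in MMK-1 libraries, from 229 to 271 and from 167 to 193 fragments. All MMK-1 libraries lay below all controls. The mean fell from 6.97 ± 0.606 FPKM to 5.27 ± 0.336 FPKM (SD, n = 3 each), a ratio of 0.756, and the log2 fold change was -0.35 (SE 0.0684, limma adjusted p = 0.00169) and -0.48 relative to the median of all genes. Every alternative gave between -0.47 and -0.29, past the threshold. Of the genes tested, 14.5% had a lower log2 fold change, so that Id3 lay inside the broad distribution of changes.

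Summed over Id1, Id2 and Id3, the level was 32.8, 33.7 and 34.1 FPKM in control and 30.3, 27.9 and 31.2 FPKM in MMK-1 libraries. Id2 made up 52.4% to 53.4% of this sum in controls and 50.3% to 56.9% with MMK-1. The sum was thus lower in each MMK-1 library than in each control, while the receptor Bmpr1a was higher in each. Bmpr1a was at 0.905 to 0.950 times the level of Id2 in controls and at 1.93 to 2.11 times that level in MMK-1 libraries. The remaining target genes on the list were low: none of the 5 with a row in the table reached the filter. Id4, a further ID gene, was highest at 0.195, 0.316 and 0.223 FPKM in control and 0.504, 0.379 and 0.414 FPKM in MMK-1 libraries, opposite in direction to Id3 (limma adjusted p = 0.0190's fit of every gene above 0). Of the E proteins that ID proteins bind, Tcf3 and Tcf12 were tested and both rose, each with a log2 fold change of 0.43 (limma adjusted p = 0.00013 and 4.1e-05). The log2 fold change of Tcf3 was 0.28 under median-ratio scaling and 0.22 under the GC correction, past the threshold in both. Tcf3 was at 23.9 to 24.9 FPKM in control and 31.8 to 36.1 FPKM in MMK-1 libraries.

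**Figure D3:**
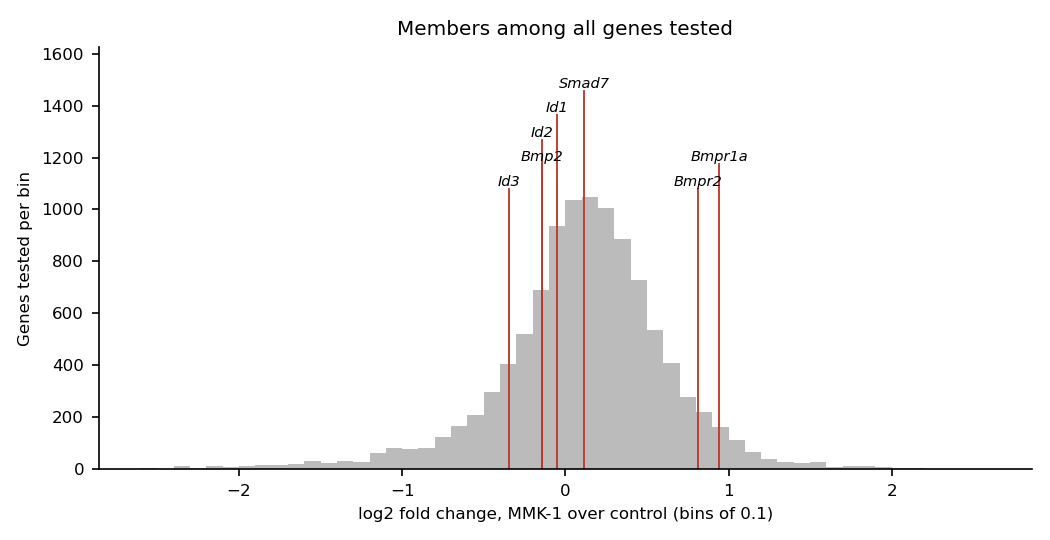
Number of genes tested per bin of 0.1 in log2 fold change, MMK-1 over control, with the 7 members tested marked by red lines. Bmpr1a and Bmpr2 lie in the upper tail, above 95.8% and 93.2% of the genes tested, and the other 5 lie between the positions of 14.5% and 48.1%, with Bmp2 and Id2 at nearly the same place.

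Smad7 (NCBI gene 17131) had 1.08, 1.01 and 1.04 FPKM in control and 1.09, 1.14 and 1.42 FPKM in MMK-1 libraries, from 84 to 117 fragments. The groups did not overlap, although the nearest libraries differed by little, 1.08 against 1.09 FPKM. The log2 fold change was 0.12 with a 95% interval of -0.05 to 0.28 (limma adjusted p = 0.177), close to the median of all genes, and 0.05 without MMK-1 replicate 3. The correction for GC content gave -0.02. Of the 7 members tested, 6 had groups that did not overlap, compared with 76.8% of all genes tested.

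Smad6 (NCBI gene 17130, chromosome 9, 63953076 to 64022059), an inhibitor more selective for BMP than for TGF-beta signals, was covered by 8, 15 and 24 fragments in control and 31, 23 and 40 fragments in MMK-1 libraries. In FPKM these were 0.0711, 0.133 and 0.214 against 0.291, 0.213 and 0.358, and Control replicate 3 reached the level of MMK-1 replicate 2. The ratio of the means was 2.06, and the exact permutation p was 0.200. In the fit of every gene above 0 the log2 fold change, which understates changes of low genes, was 0.18 (limma adjusted p = 0.0608). It passed the threshold without Control replicate 3 (0.22, limma adjusted p = 0.0466) and with limma-voom on fragments, where the log2 fold change was 1.12 (adjusted p = 0.0453), and after the GC correction it was near 0.

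Bambi (NCBI gene 68010) is named by the study among the genes raised by MMK-1 in this RNA-seq, so its direction here is no independent evidence. The study also reports RT-qPCR of these genes in the same direction. Bambi was covered by 21, 17 and 36 fragments in control and by 88, 63 and 71 fragments in MMK-1 libraries. All MMK-1 libraries were above all controls, at 0.436, 0.309 and 0.336 FPKM against 0.0987, 0.0797 and 0.169 FPKM. The mean was 0.116 ± 0.0473 FPKM and 0.360 ± 0.0670 FPKM (SD, n = 3 each), a ratio of 3.11, higher than that of any other member with fragments in both groups. On the log2(FPKM + 1) scale the difference was 0.29 in the fit of every gene above 0 (SE 0.0463, limma adjusted p = 0.00407), and limma-voom on fragments gave a log2 fold change of 1.67. After the GC correction the log2 fold change was 0.10 (limma adjusted p = 0.130), which ended the call.

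Ordered by level per length, the controls placed Id2 first, followed by Bmpr1a, Id1, Id3, Bmp2, Bmpr2, Smad7, Smad6, Bambi and Bmp4. Only Smad6 and Bambi, neighbours in that order, had overlapping ranges. With MMK-1 the order was Bmpr1a, Id2, Id1, Bmpr2, Id3, Bmp2, Smad7, Bambi, Smad6 and Bmp4, and the ranges overlapped between Bmpr2 and Id3 and between Bambi and Smad6. Thus Bmpr1a passed Id2, and Bmpr2 moved from below Bmp2 to above it.

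Of 16 secreted antagonists 9 had a row in the table and 2 were tested. Twsg1, which encodes a BMP-binding protein, rose from 6.499, 6.35 and 5.91 FPKM to 9.47, 10.3 and 9.17 FPKM (log2 fold change 0.56, limma adjusted p = 3.4e-05). Dand5 was at -0.20 (limma adjusted p = 0.0915) and passed without MMK-1 replicate 3, at -0.29. Grem1, an antagonist of mesenchymal cells, was at 0 in 5 libraries and at 0.0344 FPKM in MMK-1 replicate 1. All 7 intracellular inhibitors were tested, with 3 called higher and 1 lower, shares not above the 48.5% and 24.7% of all genes tested, and their median change was -0.07 (log2). Skil, a corepressor of SMAD complexes, rose from 1.01 to 1.08 FPKM in controls to 2.57 to 2.75 FPKM (ratio 2.52, log2 fold change 0.83, limma adjusted p = 2.2e-06), and the ubiquitin ligase gene Smurf1 had a log2 fold change of 0.30 (limma adjusted p = 0.00609, and 0.0570 under median-ratio scaling). Nedd4l, another ubiquitin ligase gene, fell from 5.08, 4.97 and 4.96 FPKM to 3.33, 3.25 and 3.67 FPKM (log2 fold change -0.44, limma adjusted p = 9.4e-05). Ppm1a, which encodes a phosphatase, was at -0.11 (limma adjusted p = 0.0757) and passed under both scalings.

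**Figure D4:**
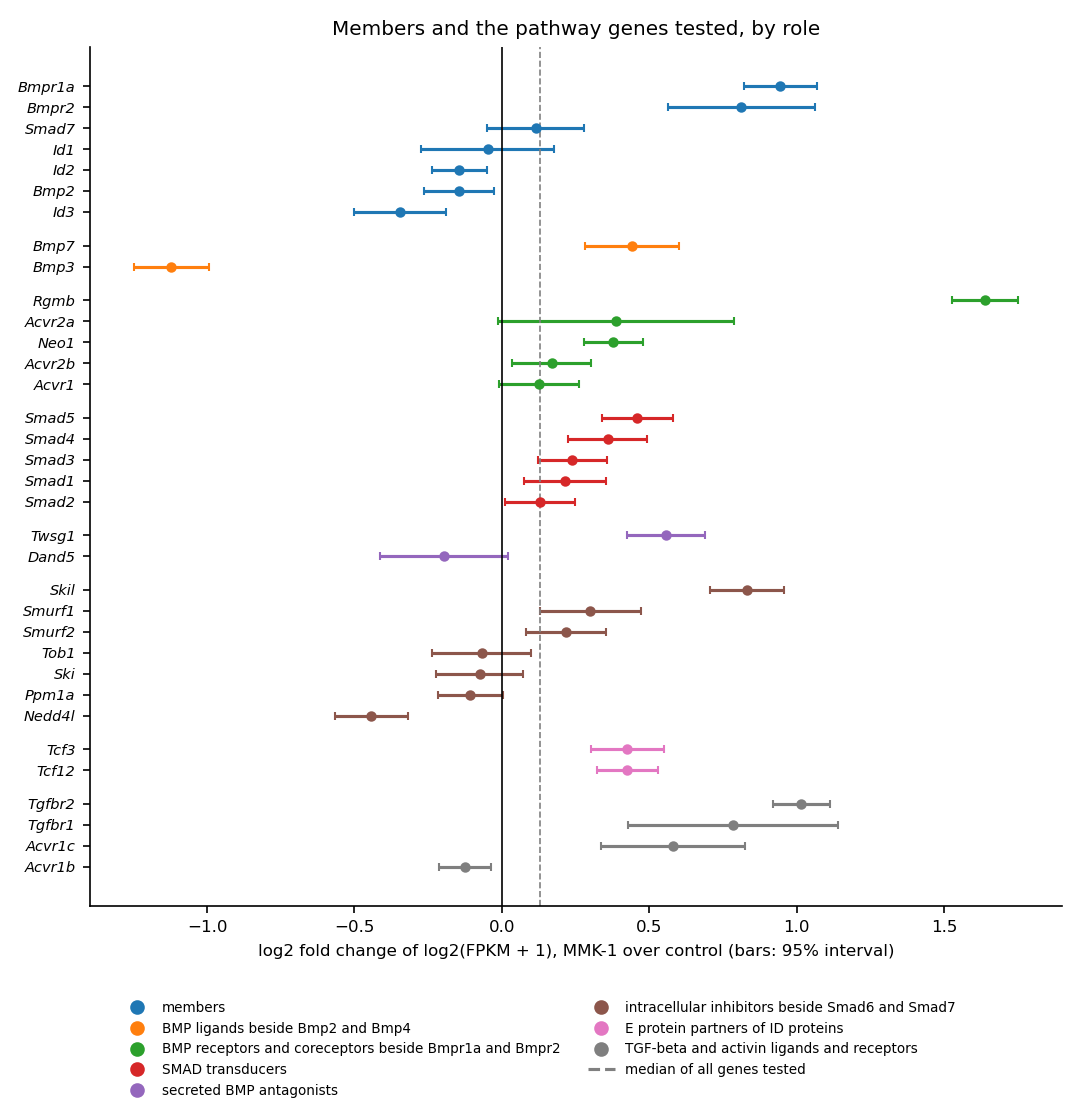
Log2 fold change of log2(FPKM + 1), MMK-1 over control, with 95% intervals from limma on 6 libraries, for the 7 members tested and the 27 further pathway genes tested, coloured by list. The dashed line is the median of all genes tested, 0.13. Rgmb lies farthest to the right, at 1.64, and Bmp3 farthest to the left, at -1.12, and the 5 SMAD transducers all lie above 0.

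The neighbouring TGF-beta and activin receptors were read beside the BMP receptors. Tgfbr2 rose from 23.2, 22.4 and 22.8 FPKM to 45.9, 46.3 and 49.3 FPKM, a ratio of 2.07 and a log2 fold change of 1.02 (limma adjusted p = 1.6e-07), much as Bmpr1a did. Tgfbr1 was at 4.20, 4.27 and 4.46 FPKM in control and 10.01, 9.25 and 5.77 FPKM in MMK-1 libraries (log2 fold change 0.78, limma adjusted p = 0.00176), with MMK-1 replicate 3 lowest, as for Bmpr2 and Acvr2a. Acvr1b fell slightly (log2 fold change -0.12, limma adjusted p = 0.0169, and -0.27 under median-ratio scaling). Over all lists, 55 of 72 genes had a row in the table, the remainder were not analysed here, and 27 were tested, of which 18 were called higher, 3 lower and 6 in neither direction, and the median change was 0.30 (log2). Of all genes tested 48.5% were called higher and 24.7% lower in the same fit. The number called higher was 14 under upper-quartile scaling, 12 under median-ratio scaling and 15 under the GC correction, where 41.7%, 35.9% and 39.7% of all genes tested were higher. The number called lower was 6 without MMK-1 replicate 3 and 6 under upper-quartile scaling, where Ski, Ppm1a and Dand5 passed too, and 7 under median-ratio scaling, where Tob1 joined them, while 27.9%, 31.2% and 36.3% of all genes tested were lower in these fits. In the table's own annotation to the KEGG TGF-beta signaling pathway, 87 genes beside the members were listed and 51 tested, with 40 called higher and 4 lower, and the median change was 0.30 (log2). Tgif2, which encodes a corepressor of SMAD-dependent transcription, had the highest log2 fold change of these, 1.81, and rose from 0.667 to 0.720 FPKM in controls to 4.54 to 5.33 FPKM (limma adjusted p = 6.1e-08). Its control mean was under the filter of 1 FPKM, which it passed only through its MMK-1 libraries. The cell cycle inhibitor Cdkn2b, a known target of TGF-beta, had the lowest, with 38.9, 37.9 and 38.7 FPKM in control and 15.6, 15.8 and 17.8 FPKM in MMK-1 libraries (log2 fold change -1.18, limma adjusted p = 2.5e-07), followed by the kinase gene Mapk3 at -0.31 (limma adjusted p = 0.00017).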

How the data were processed

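RNA of 6 organoid libraries, 3 per group, was sequenced after library construction with a VAHTS Universal kit. The authors deposited a table of FPKM values (fragments relative to the length of the gene and the total of the library), with NCBI gene numbers and KEGG pathways. The submitters' processing notes name mm10, HISAT2 and HTSeq, without roles, and the strand setting of the counting is not given in the sources used here. How reads shared with antisense or overlapping genes were counted is therefore open.

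FPKM values were whole multiples of 1 fragment per gene and library, and fragments and depth were recovered from this for all 20676 genes above 0, within 0.01 fragments. In simulated libraries 97.36% of 3449 genes above 0 in several libraries were recovered. Fragments carry counting error and, as the chi-square values show, further spread between libraries. A count of 0 was taken to allow up to 3 fragments in a library.

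Differences were tested with limma 3.58.1 in R 4.3.3 (limma-trend, log2(FPKM + 1), mean FPKM of at least 1, Benjamini-Hochberg over all 10551 genes, two-sided, no replicate block). Members below the filter were taken from a fit of every gene above 0. On data simulated for this comparison around the control means, with 10380 genes, 200 of 200 changed genes and 12 unchanged genes were called. Whether differences as small as those of Bmp2 and Id2 would be called was not tested. Single genes also had an exact permutation test. GC content (GENCODE vM21, GRCm38) matched 98.7% of genes tested. Alternatives were the pseudocount (0.1), no filter, upper-quartile scaling over the genes tested, median-ratio scaling, a replicate block, each library left out, limma-voom on fragments, a GC correction by local regression (span 0.3) and the fold change rule of the study's methods. All 10 members were named, and of each pathway list the genes with the 2 largest changes in each direction among those tested. The KEGG pathway was treated in the same way, and the list genes named that lie below the filter were chosen after their values were seen. The members and lists were chosen with earlier results of these data known. Coordinates are those of GENCODE vM21 and can differ from the authors' annotation. The other steps ran in Python 3.11.15 (scipy 1.17.1, numpy 2.4.6, pandas 2.3.3, matplotlib 3.10.9).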

Additional observations from a re-analysis of the deposited data

How the results depend on the processing

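Over the alternatives, 108 of 127 values of the 10 members kept their direction and their side of the threshold, 13 lost the call, 3 gained it and 3 turned direction. Those that turned were not called: Id1 at 0.06 without MMK-1 replicate 2 (the other omissions gave -0.16 to -0.01), and Smad7 at -0.02 and Smad6 at -0.001 under the GC correction. At the study's thresholds (2-fold or more, with an unadjusted p up to 0.05), applied on the log2(FPKM + 1) scale to genes past the filter, 358 genes were higher and 385 lower, 0 members in either direction, and 2 pathway genes higher and 1 lower; this is stricter by construction, and the plain ratio of FPKM was 2.04 for Bmpr2, 2.06 for Smad6 and 3.11 for Bambi. Members called lower were 1 to 3 with 1 library left out. Pathway genes called higher were 14, 12 and 15 under upper-quartile scaling, median-ratio scaling and the GC correction. Those called lower were 6 under upper-quartile scaling, 7 under median-ratio scaling, 7 under the GC correction and 2 to 6 with 1 library left out; the cause was not tested. Same-numbered libraries of the groups had correlated deviations of -0.04 to 0.028, so the numbers did not pair them, and the replicate block gave 5024 genes higher and 2543 lower, 2 members higher and 2 lower (Bmp2 at an adjusted p of 0.0681 in limma), with Bmp4 no longer past the threshold (0.0705) and Smad6 past it (0.0376) in the fit of every gene above 0. Counts of 8 to 36 fragments limit what can be said of Smad6 and Bambi in controls, and those of Bmp4 are at the limit of detection.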
